A study of Mus musculus with 5 samples.

Results

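Expression of the Hox genes was read across 5 single-colour oligonucleotide arrays of mouse rib chondrocytes in primary culture, with 1 array for each of days 2, 6, 9, 12 and 15. Members were all probe sets, the groups of short probes that stand for a transcript on such arrays, whose only gene symbol in the platform annotation was that of a Hox gene of clusters A to D. There were 48 such probe sets of 45101 in the table, for 33 Hox genes, and Hox genes without a probe set of their own were not analysed here. Every group shared the FVB strain and embryos of gestational day 18.5, no allele or drug treatment was labelled, and the groups differed in days of culture. Ribs were taken apart with collagenase and trypsin, and the cells were grown on gelatin in serum with ascorbic acid and beta-glycerophosphate. The labels do not say how many embryos were pooled or whether the dishes came from a common isolate. Without a repeat array for any day, a difference between days cannot be set against replicates, and the number of arrays limits the precision. Where a gene has several probe sets they are numbered from the highest mean intensity, as in Hoxa5 (1) and Hoxa5 (2).

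Hox genes encode transcription factors that bind DNA through a homeodomain. In the mouse they lie in 4 clusters, Hoxa to Hoxd, and genes of the same paralogue number in different clusters descend from a common ancestor. Low numbers are switched on first and toward the head, and high numbers later and toward the tail and the tips of the limbs, so the set of Hox genes a mesenchymal cell expresses records where in the body it arose. In the trunk skeleton the genes of paralogue group 6 promote ribs and those of group 10 suppress them, while groups 5 and 9 take part in shaping the sternum.

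The labelled cell type was checked first. All 14 chondrocyte markers reached the intensity floor defined below on at least 1 array, and Col2a1, the type II collagen gene, and Acan, the aggrecan gene, had intensities of 46505, 39066, 22143, 7510.3 and 17566 and of 19492, 11052, 2092, 723 and 2328 in order of day. Array medians lay between 106 and 118, and 58.8% to 61.9% of probe sets reached the floor on each array. Compared with day 2, 10 of 14 chondrocyte markers were at least 2-fold lower at day 15 and 2 were higher, and the intensities of the list summed to 152856 at day 2 and 63162 at day 15. Fibroblast and perichondrium markers were at least 2-fold higher in 10 of 13 and lower in 1, with sums of 39957 and 195826, osteoblast markers were higher in 6 of 6, and adipocyte markers in 5 of 7. Smooth muscle and pericyte markers were higher in 6 of 7 and lower in 1, with sums of 12287 and 41897. Among all 15624 detected genes, read by the brightest probe set, 12.2% passed 2-fold upward between these days and 10.7% downward. In the lists for endothelium, macrophage and blood, and skeletal muscle, 3 of 7, 2 of 8 and 4 of 12 measured markers reached the floor on no array, among them Pecam1, Hba-a1, Cd3e, Myf5 and Pax7, and the others reached it on at least 1. Their sums over the days ranged from 144 to 294, from 658 to 1509 and from 1211 to 2249, and Tnnt3 of muscle reached 1302 on day 6 and Csf1r of macrophages 379.6 on day 2. Of all 18193 genes, 15624 reached the floor on some array. The counts of undetected markers do not by themselves show that a cell type was absent. In such bulk RNA, fewer cells of a type and less RNA per cell cannot be told apart.

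Upstream sequence is shown for the genes named below for a difference of at least 2-fold that had an entry in the RefSeq promoter table of build GRCm38.p6, and for Hoxa13, a gene below the floor on every array, as a contrast. Of the 33 genes, 19 had an entry, and Hoxb2, Hoxb3, Hoxc6 and Hoxc8 did not. Each window holds the 250 bases before the annotated start, in the direction of transcription, and capitals mark TAAT on either strand, the core that many homeodomains bind. The windows are chr6:52204588-52204837 (minus strand) for Hoxa5, chr6:52227371-52227620 (minus) for Hoxa9, chr2:74704365-74704614 (plus) for Hoxd8, chr2:74697513-74697762 (plus) for Hoxd9 and chr6:52260881-52261130 (minus) for Hoxa13.
Hoxa5: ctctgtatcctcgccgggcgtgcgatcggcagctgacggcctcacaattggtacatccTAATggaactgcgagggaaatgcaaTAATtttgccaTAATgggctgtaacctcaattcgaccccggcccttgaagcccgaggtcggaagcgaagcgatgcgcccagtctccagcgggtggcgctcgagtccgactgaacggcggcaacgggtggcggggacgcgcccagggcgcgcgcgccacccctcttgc
Hoxa9: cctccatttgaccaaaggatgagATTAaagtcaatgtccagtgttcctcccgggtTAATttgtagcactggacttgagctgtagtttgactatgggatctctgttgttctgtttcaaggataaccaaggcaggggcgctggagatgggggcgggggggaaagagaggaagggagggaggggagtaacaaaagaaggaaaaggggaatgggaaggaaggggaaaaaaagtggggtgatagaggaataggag
Hoxd8: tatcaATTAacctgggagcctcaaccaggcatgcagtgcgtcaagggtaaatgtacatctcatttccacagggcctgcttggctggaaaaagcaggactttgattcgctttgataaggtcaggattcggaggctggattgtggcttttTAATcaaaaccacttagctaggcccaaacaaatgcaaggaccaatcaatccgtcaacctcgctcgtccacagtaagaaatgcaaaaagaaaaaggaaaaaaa
Hoxd9: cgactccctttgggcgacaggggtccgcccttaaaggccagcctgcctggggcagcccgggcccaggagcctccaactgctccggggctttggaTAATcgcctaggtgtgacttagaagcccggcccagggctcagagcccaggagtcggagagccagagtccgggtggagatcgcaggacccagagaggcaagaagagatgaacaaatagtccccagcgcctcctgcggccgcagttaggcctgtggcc
Hoxa13: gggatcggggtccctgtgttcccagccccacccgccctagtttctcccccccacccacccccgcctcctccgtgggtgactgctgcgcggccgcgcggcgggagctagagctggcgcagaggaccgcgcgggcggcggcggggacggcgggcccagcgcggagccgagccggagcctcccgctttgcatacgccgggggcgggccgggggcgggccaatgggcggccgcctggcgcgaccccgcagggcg
The core occurred 3 times upstream of Hoxa5, 2 times upstream of Hoxa9 and of Hoxd8, once upstream of Hoxd9 and at no place in the Hoxa13 window. At least 1 copy was present in 54.9% of all 32851 windows and in 18 of 24 Hox windows. TTTAT, a core bound by Cdx and posterior Hox factors, and TGATNNAT, a composite Pbx and Hox site in which N is any base, were searched on both strands. TTTAT and TAAT can share letters where they overlap, and neither TTTAT nor TGATNNAT was found in the 5 windows shown. They were present in 37.3% and 7.68% of all windows and in 9 and 4 of the 24 Hox windows. CpG dinucleotides numbered 28 upstream of Hoxa5, 3 of Hoxa9, 6 of Hoxd8, 13 of Hoxd9 and 35 of Hoxa13, against a median of 6 over all windows and of 12.5 over the Hox windows. These matches describe the letters only.

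Genes of the middle of the series were found on the arrays, and those of the tail end mostly were not. A value was read against a floor at the 40th percentile of all values, an intensity of 73.1, and a probe set under it on all 5 arrays is reported as not detected. By that rule 37 of the 48 Hox probe sets, for 23 of 33 genes, were detected on at least 1 array, 77.1% beside 80.2% of all probe sets. The rule is lenient, and 21 Hox probe sets for 15 genes reached the floor on all 5 arrays, 43.8% beside 43.6% of all probe sets. The Hox probe sets as a whole were thus detected about as often as all probe sets. Counted by gene, with the brightest probe set of each, 23 of 33 Hox genes were detected. Over all genes it was 15624 of 18193, a larger share.

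**Figure D1:**
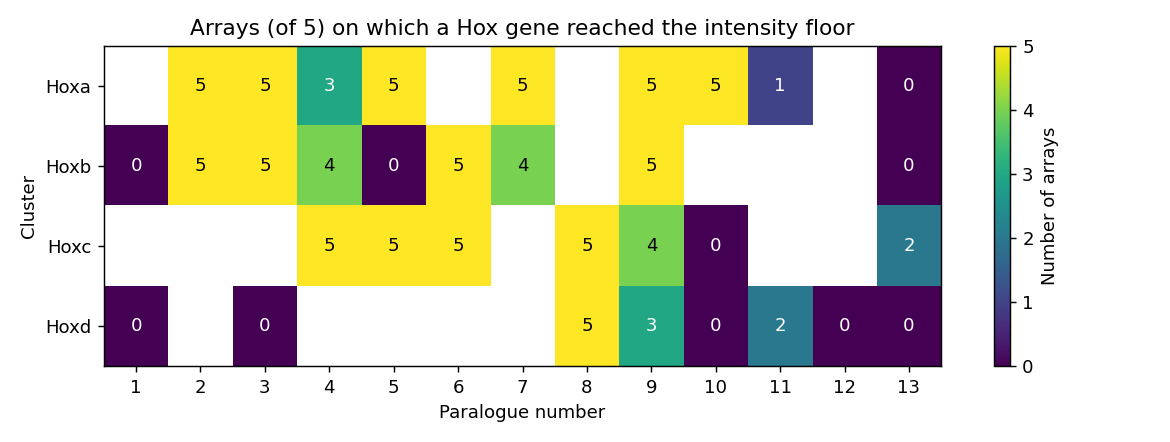
Number of the 5 arrays (colour and digit) on which the best probe set of each Hox gene reached the intensity floor, by cluster (rows) and paralogue number (columns). Blank cells are the 6 genes without a probe set of their own and the numbers for which a mouse cluster has no gene. Genes present on all 5 arrays lie between numbers 2 and 10, and Hoxa10 is the last of them.

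Paralogue groups 2 to 9 held 20 of the 21 probe sets present on all 5 arrays. Among their 34 probe sets, 32 were detected, for 19 of 21 genes, and the exceptions were Hoxb5 and Hoxd3. In group 1, which acts in the hindbrain, neither Hoxb1 nor Hoxd1 was detected. In groups 10 to 13, which act in the lumbar, sacral and tail region and in the limbs, 5 of 12 probe sets were detected, and 1 of them, 8.33%, on all 5 arrays. That probe set was for Hoxa10, at 81.7, 90.1, 84.6, 123 and 131 in order of day. The others of this range were near the floor. Hoxa10 (2) and Hoxa11 reached it on day 6 alone, Hoxc13 on days 6 and 9, and Hoxd11 on days 9 and 15. Hoxa13, Hoxb13, Hoxc10, Hoxd10, Hoxd12 and Hoxd13 reached it on no day. The Hoxd10 probe set was at most 13.5.

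By cluster, 8 of 9 measured genes of cluster A, 6 of 9 of B, 6 of 7 of C and 3 of 8 of D were detected. In cluster D these were Hoxd8, Hoxd9 and Hoxd11, and Hoxd8 alone was present on all 5 arrays. Values near the floor are uncertain in either direction. The highest among probe sets not detected were 63.9 for Hoxa13 and 63.4 for Hoxc10, and the detected ones with the lowest maximum were Hoxd11 at 83.0 and a Hoxa3 probe set at 84.8. A weakly binding probe set and little transcript cannot be told apart from a low value, and intensities of different probe sets are not compared as levels.

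Most detected Hox probe sets did not pass 2-fold between the ends of the culture. Of the 37, 28 did not pass it between day 2 and day 15, of which 5 were below the floor on both days, 7 were higher at day 15 by 2-fold or more, and 2 were lower by as much. The higher ones were for Hoxa9 (both probe sets), Hoxb2, Hoxb3, Hoxc8, Hoxd8 and Hoxd9, and the lower ones for Hoxa5 and Hoxc6. As shares, 18.9% of detected Hox probe sets were higher, beside 10.1% of all detected probe sets, and 5.41% were lower, beside 10.2%, while 20.3% of all differed in either direction. The count of lower ones depends on the floor, and with a floor at the 20th percentile 7 of 46 detected Hox probe sets were lower. The share over all probe sets was not counted at that floor. Among detected probe sets with a mean intensity from the floor to 1000, where most Hox probe sets lie, the shares over all genes were 13.4% and 13.5%. The median log2 difference was 0 both for the 37 Hox probe sets and for all detected probe sets. A detected probe set that reached the floor on few arrays could only differ in the direction of those arrays, so these counts describe the members and carry no test. Day 2 is a single array and decides many of these calls: with day 6 in its place, 4 Hox probe sets were at least 2-fold higher and 3 lower at day 15. The share over all probe sets was not counted for days 15 and 6. Of the 7, those of Hoxb2 and Hoxd9 stayed past 2-fold, and Hoxb4 (1) and Hoxd8 (2) were the other two. The chondrocyte, fibroblast, osteoblast, adipocyte and smooth muscle markers given above differed over the same days, and their part in the Hox differences was not tested.

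The size of a 2-fold difference can be set against the spread between probe sets of a gene. Over 4040 genes with 2 detected probe sets, a log2 difference between days 15 and 2 read from 1 of them had an SD of 0.65, which leaves out any variation between arrays or dishes. Of 10 Hox genes with several detected probe sets, 5 had at least 1 past 2-fold, and for Hoxa9 alone every probe set was. Differences between the probe sets of a gene were over 1 on the log2 scale for Hoxa5, Hoxb3 and Hoxc6.

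**Figure D2:**
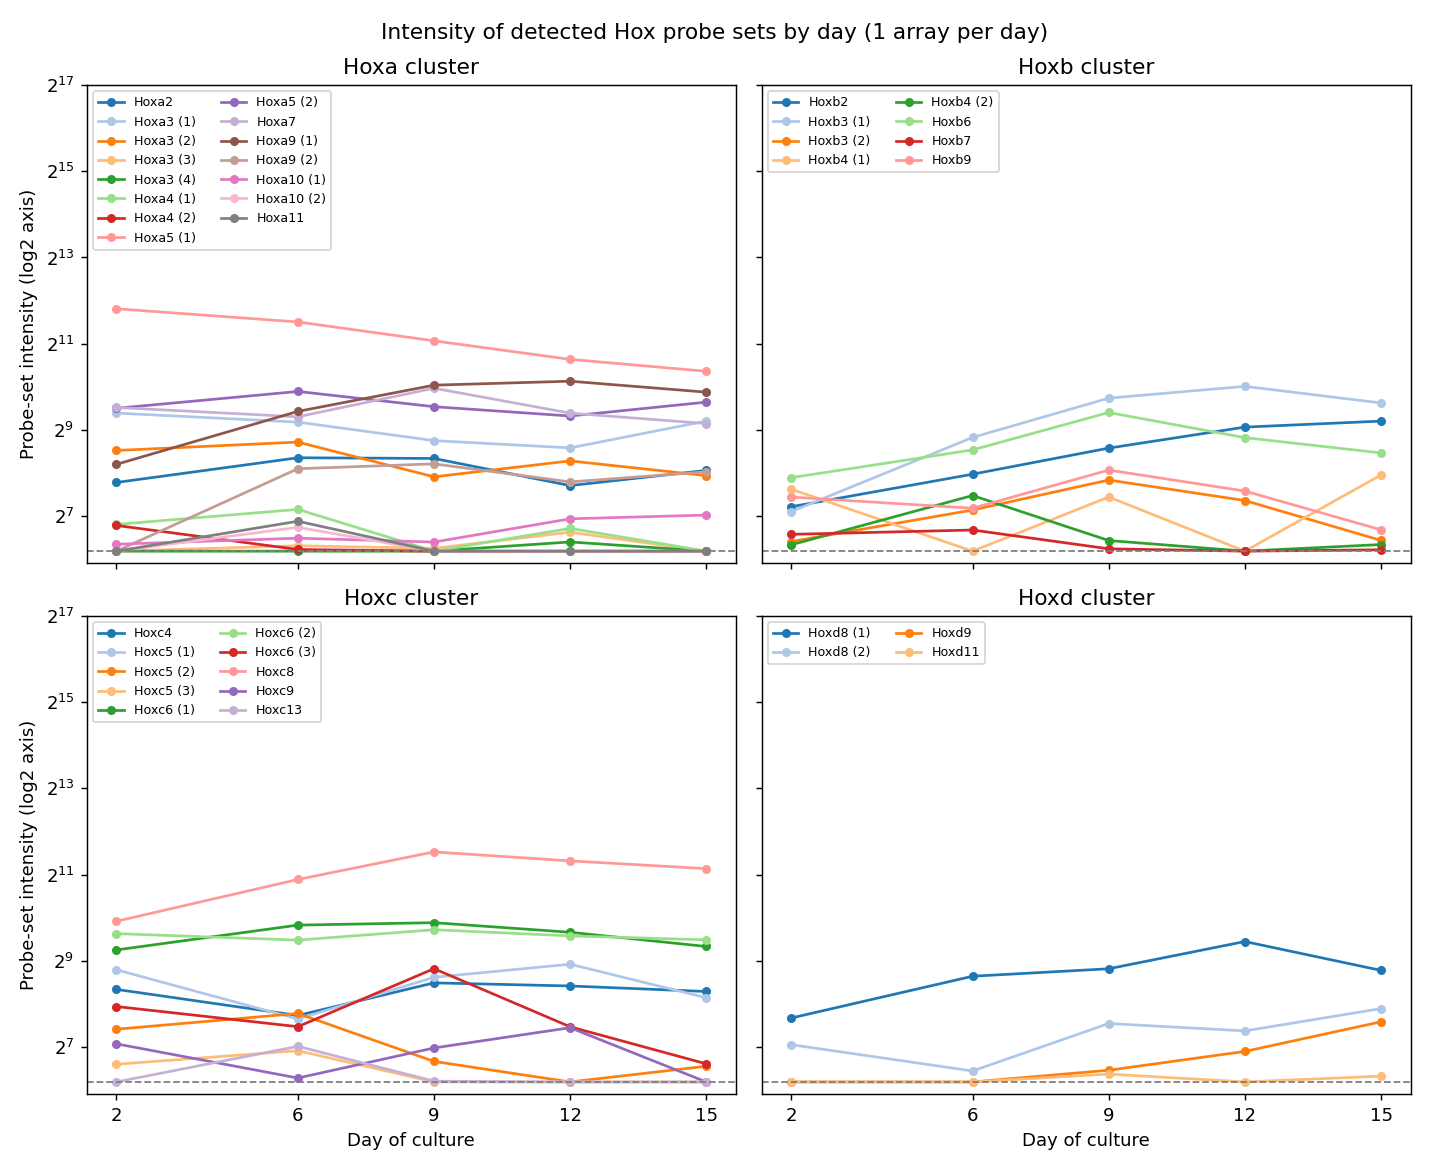
Intensity of each detected Hox probe set (log2 axis) against day of culture, 1 array per day, by cluster, with values below the floor drawn at the floor (dashed line) and probe sets of a gene numbered from the highest mean intensity. Hoxb2 and Hoxb3 (1) lie highest on days 15 and 12, Hoxc8 on day 9, and Hoxa5 (1) is lower on each day than on the one before.

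In cluster B, Hoxb2 and 1 of 2 Hoxb3 probe sets were higher at day 15. Hoxb2, which patterns the hindbrain, had intensities of 149, 252, 383, 537 and 591 on days 2, 6, 9, 12 and 15. Each day was higher than the one before, and day 15 was 3.96-fold above day 2. Hoxb3, its neighbour, had 138, 455, 855, 1033 and 791 by its brighter probe set, with day 2 the lowest and day 12 the highest, and was 5.73-fold higher at day 15. With day 6 in place of day 2 the log2 difference of Hoxb3 (1) was 0.80, which ends the call. Hoxb3 (2) had 85.3, 142, 229, 165 and 86.9. It too was highest in the middle of the course, 2.69-fold above day 2 on day 9, but its day 2 and day 15 values differed by 1.02-fold, so the probe sets of Hoxb3 share the early difference and not the late one.

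The other detected genes of cluster B were within 2-fold between days 2 and 15. Hoxb4 was uneven: Hoxb4 (1) had 198, 45.0, 175, 64.0 and 249, below the floor on days 6 and 12, and Hoxb4 (2) had 80.9, 179, 86.7, 38.4 and 81.3, highest on day 6. Both were below the floor on day 12, and on day 6 one was low and the other at its highest. Hoxb6, of the rib-promoting group, had 238, 372, 679, 453 and 354, with its peak on day 9 at 2.85-fold of day 2 and 1.49-fold at day 15. Hoxb7 had 95.8, 103, 75.9, 33.4 and 74.8, at most 1.41-fold above the floor. Hoxb9, a member of the group that takes part in shaping the sternum, had 174, 146, 269, 192 and 103, also highest on day 9, and was 1.69-fold lower at day 15 than at day 2. Of the 8 detected probe sets of the cluster, 5 were present on all arrays.

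Cluster A held members that differed in opposite directions. Hoxa5, needed for the neck to chest transition of the skeleton and for the lung, had 3594, 2907, 2147, 1594 and 1316 by probe set (1). Each day was lower than the one before, and day 15 was 2.73-fold below day 2. Probe set (2) had 726, 952, 745, 641 and 802, with no order over the days and a day 15 value 1.10-fold above day 2. Its identifier carries the suffix x, which marks probe sets whose probes can match other transcripts. The identifiers of Hoxc6 (1) and of the dimmer Hoxa4 probe set carry the same suffix. The lower level of Hoxa5 therefore rests on 1 of 2 probe sets, the brighter one.

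Hoxa9, at the other side of the cluster and best known for its part in blood stem cells and limb patterning, had 295, 691, 1053, 1122 and 941 by probe set (1). Day 2 stood apart from the 4 later days, and day 15 was 3.19-fold above it. Probe set (2) had 29.4, 275, 297, 222 and 262, below the floor at day 2 and between 222 and 297 afterwards, which put day 15 at least 3.58-fold higher. By both, day 6 was already more than 2-fold above day 2. With day 6 in place of day 2 the log2 differences to day 15 were 0.45 and -0.072, and with the floor at the 60th percentile the second was 0.53. Hoxa10 was 1.60-fold higher at day 15 by the probe set given above.

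The remaining genes of cluster A did not pass 2-fold between days 2 and 15. Hoxa2, which sets the identity of the second pharyngeal arch, had 220.4, 328, 324, 209.7 and 268, and its highest and lowest days differed by 1.56-fold. Hoxa3, which acts in the neck and thymus, had 672, 581, 432, 384 and 592 by its brightest probe set and was 1.14-fold lower at day 15. The next probe set had 369, 422, 241, 312 and 246, lower at day 15 by a log2 difference of -0.58, and its other 2 were near the floor. Hoxa7, a thoracic gene, had 736, 633, 1003, 672 and 568 and was 1.29-fold lower at day 15. Hoxa4 was present at day 2, at 112 and 111 by its probe sets, and below the floor at day 15 by both, which put it at least 1.54-fold and 1.51-fold lower, both lower bounds.

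**Figure D3:**
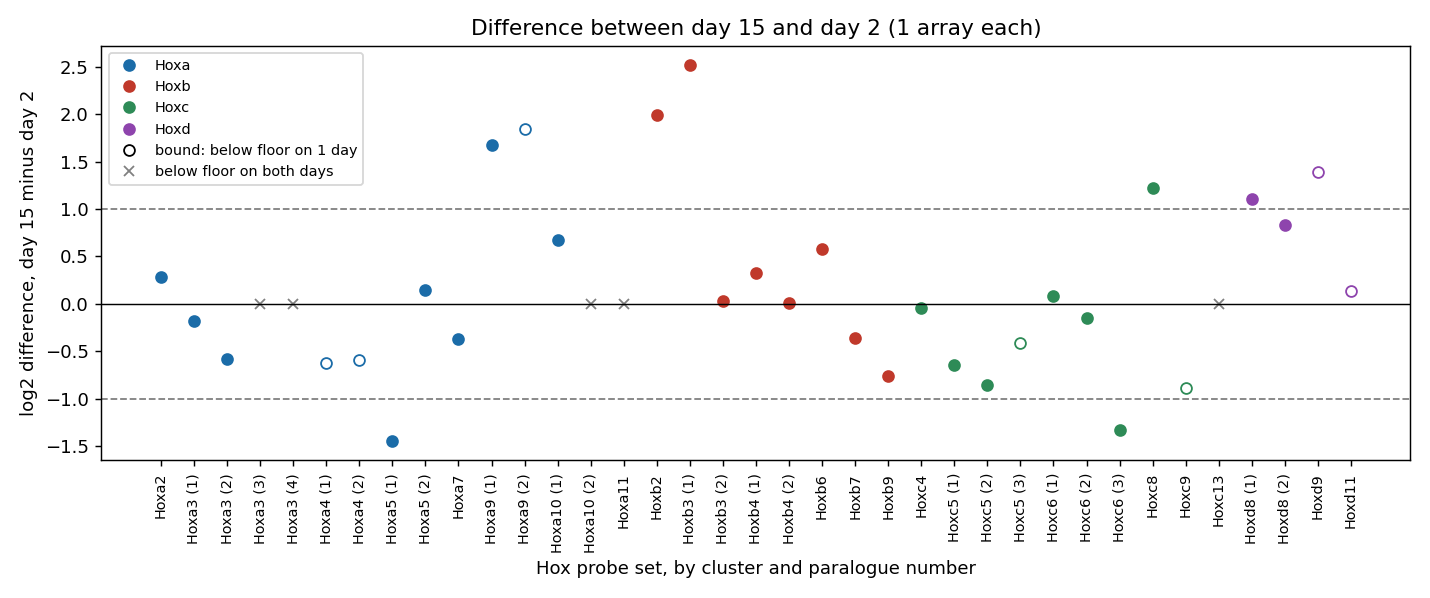
The log2 difference in intensity between day 15 and day 2 for each of the 37 detected Hox probe sets, ordered by cluster and paralogue number, with open points for bounds, crosses for probe sets below the floor on both days and dashed lines at 2-fold. Hoxb3 (1) is the highest at 2.52 and Hoxa5 (1) the lowest at -1.45.

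In cluster C, Hoxc8 was the member that differed most in the higher direction. Hoxc8, expressed in the chest region and required for the normal form of ribs and vertebrae, had 966, 1893, 2946, 2549.6 and 2252. Day 2 was the lowest, day 9 the highest at 3.05-fold of it, and day 15 was 2.33-fold above day 2. With day 6 in place of day 2 the log2 difference was 0.25, which ends the call. Hoxc6, of the rib-promoting group, had 609.8, 909, 945, 810.0 and 644 by probe set (1), 1.06-fold higher at day 15. Hoxc6 (2) had 793, 714, 844, 764 and 717, and its highest and lowest days differed by 1.18-fold. The dimmest, Hoxc6 (3), was lower at day 15, by 2.51-fold, with 246, 178, 451, 177 and 97.8 and a peak on day 9. The lower call for Hoxc6 therefore rests on 1 of 3 probe sets, and with a floor at the 60th percentile its log2 difference was -0.44.

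Other genes of cluster C were level or lower. Hoxc4 had 324, 213, 359, 342 and 313, 1.03-fold lower at day 15 than at day 2. Hoxc5 was lower at day 15 by all 3 probe sets, at 1.57-fold, 1.81-fold and at least 1.33-fold, and the brightest of them had 444, 201, 393, 485 and 283, with its lowest value on day 6. Hoxc9 had 135, 77.8, 126, 175 and 53.9, below the floor at day 15 and so at least 1.84-fold lower. The values for Hoxc9 and Hoxc5 (3) are lower bounds, which do not place these genes within 2-fold.

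In cluster D, 2 of 4 detected probe sets were at least 2-fold higher at day 15, beside 10.1% of all detected probe sets. They were those of Hoxd9 and Hoxd8 (1). Hoxd8 had 204, 399.7, 451, 698 and 439 by probe set (1), lowest at day 2 and highest at day 12, and was 2.15-fold higher at day 15. Hoxd8 (2) had 133, 87.2, 187, 166 and 238, 1.78-fold higher. Hoxd9 had 19.8, 14.1, 88.2, 119 and 192, below the floor on days 2 and 6 and above it on days 9, 12 and 15, and was at least 2.63-fold higher at day 15. The call depends on the floor, and with one at the 60th percentile the log2 difference was 0.085. Hoxd11 was at most 1.13-fold above the floor. Read by paralogue number, detected probe sets at least 2-fold higher numbered 1 of 2 in group 2, 1 of 6 in group 3 and 0 of 16 in groups 4 to 7. They numbered 2 of 3 in group 8, 3 of 5 in group 9 and 0 of 5 in groups 10 to 13. The share over all detected probe sets was 10.1%, each group holds few probe sets, and the values for Hoxa9 (2) and Hoxd9 are bounds. With day 6 in place of day 2 the difference for Hoxd8 (1) was 0.14 on the log2 scale, so of the 5 in groups 8 and 9 that of Hoxd9 alone stayed past 2-fold.

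Over time, most of the difference in the higher direction was present by day 9. Day 9 against day 2 gave 8 Hox probe sets at least 2-fold higher, beside 10.1% of all detected probe sets, and 0 lower, beside 9.07%. The 8 were both of Hoxa9 and of Hoxb3 and those of Hoxb2, Hoxb6, Hoxc8 and Hoxd8 (1). The comparisons of days 9 and 15 with day 2 share that array. From day 9 to day 15, 1 was at least 2-fold higher, that of Hoxd9, beside 3.44% of all, and 3 were lower, beside 3.78%. The 3 were probe sets of Hoxb3 (2), Hoxb9 and Hoxc6 (3).

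Single steps held few such differences. From day 2 to day 6, 4 Hox probe sets were at least 2-fold higher and 2 lower, beside 7.93% and 6.21% of all detected probe sets. The higher ones were both Hoxa9 probe sets and 1 each of Hoxb3 and Hoxb4, and the lower ones 1 each of Hoxb4 and Hoxc5. From day 6 to day 9, 3 were higher and 2 lower, beside 4.29% and 4.15%. From day 9 to day 12, 0 were higher and 2 lower, beside 1.63% and 1.49%, and from day 12 to day 15, 1 was higher and 1 lower, beside 3.05% and 3.74%. Hoxb4 (1) passed 2-fold at every step, lower, higher, lower and higher in turn, with days 6 and 12 below the floor.

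Over the 21 Hox probe sets present on all 5 arrays, the highest day exceeded the lowest by 2-fold or more in 12, 57.1% beside 41.6% of all such probe sets. The median of that ratio was 2.61-fold, beside 1.86-fold over all. The comparison was not matched for intensity, and some genes gave several of the 21 probe sets, so it does not show that Hox genes vary more. The steadiest was Hoxc6 (2), at 1.18-fold, and the widest was Hoxb3 (1), at 7.49-fold.

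The one test the design allows is a straight-line trend of log2 intensity on day over the 5 arrays. It was fitted with limma to all 36136 detected probe sets. By limma, 0 Hox probe sets had a rising and 0 a falling trend at an adjusted p under 0.05, beside 0% of all probe sets in each direction, and the lowest adjusted p over the whole table was 0.154. At an unadjusted p under 0.05 by limma there were 5 rising Hox probe sets, beside 8.6% of all, and 2 falling, beside 10.2%. Those with a positive slope were Hoxb2, Hoxd9, Hoxb3 (1), Hoxa9 (1) and Hoxa10 (1), and those with a negative slope Hoxa5 (1) and Hoxc5 (2).

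Hoxb2 and Hoxa5 (1) had the lowest trend p-values among the Hox probe sets. For Hoxb2 the slope was 0.16 ± 0.02 log2 units per day (SE, 5 arrays), with a limma adjusted p of 0.154. For Hoxa5 (1) it was -0.12 ± 0.01 (SE), with the same limma adjusted p. For Hoxd9 it was 0.11 ± 0.03 (SE), with a limma adjusted p of 0.168. On simulated courses over the same 36136 probe sets, this fit recovered 0, 8, 19 and 30 of 50 probe sets with total log2 changes of 1, 2, 3 and 4, so it called few courses with a total log2 change of 2 or less.

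Hox proteins bind DNA together with cofactors of the Pbx, Meis and Pknox families, which carry a related homeodomain. All 8 measured cofactor genes of 9 listed were detected, and 1 was at least 2-fold higher and 2 lower at day 15, by the brightest probe set of each, beside 12.2% and 10.7% of 15624 detected genes. Meis1 had 628, 636, 679, 443 and 193, 3.25-fold lower at day 15, while its other probe sets ranged from 1.37-fold lower to 1.41-fold higher. Pbx4 had 174, 73.3, 22.2, 45.7 and 67.4, at least 2.38-fold lower, and its other detected probe set differed by 1.38-fold in that direction. Meis3 had 109, 69.7, 103, 203 and 236, 2.17-fold higher. Pbx3 was within 2-fold, with 882, 1850.2, 1799, 1534 and 1315, and was 1.13-fold lower at day 15 by another probe set. The median log2 difference was -0.23, beside 0 over all detected genes, and by limma 0 passed an adjusted p under 0.05. With limma unadjusted p under 0.05, 1 was rising and 1 falling, beside 8.6% and 10.2% of all detected probe sets.

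Chromatin regulators keep Hox clusters silent or active after the pattern is laid down. Of the Polycomb group, which holds clusters silent, 26 of 28 listed genes were measured and detected, with day 15 higher by 2-fold or more in 1 and lower in 5, beside 12.2% and 10.7% of all detected genes. Eed, a subunit of the complex that methylates histone H3, had 3198, 2368, 1887, 1814 and 1505, lower on each day than on the one before and 2.12-fold lower at day 15. Phc2, a subunit of the complex that ubiquitinates histone H2A, was 2.28-fold lower, and 2.24-fold by another probe set. Ring1, of the same complex, had 353, 23.5, 150.3, 239 and 124, 2.85-fold lower at day 15 and below the floor at day 6. Jarid2, which helps recruit the methylating complex, had 166, 465, 746, 667 and 569, 3.43-fold higher, and between 1.07-fold and 3.38-fold higher by its other probe sets. Pcgf5 and Scmh1, chosen for naming with their values in view, were the other lower members, for which no other probe set was lower. The list median was -0.36, and by limma 0 members passed an adjusted p under 0.05, with 1 rising and 6 falling at an unadjusted p under 0.05, beside 8.6% and 10.2% of all detected probe sets.

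The Trithorax group and the histone demethylases that oppose Polycomb were mostly level, with 12 of 13 detected genes within 2-fold, 1 higher and 0 lower, beside 12.2% and 10.7%. Kdm6b, a demethylase gene, had 229, 578, 618, 411 and 561, 2.45-fold higher at day 15 by its brightest probe set, while its others were within 1.05-fold. Smarca4, the ATPase of a remodelling complex, had 2156, 1911, 1602, 1273 and 1183, 1.82-fold lower, and Kmt2c and Kansl1 were 1.79-fold and 1.72-fold higher. Other Kmt2c probe sets ranged from 1.39-fold lower to 1.86-fold higher, and other Kansl1 probe sets from 1.42-fold to 3.63-fold higher. The list median was -0.17, and by limma 0 passed an adjusted p under 0.05. With limma unadjusted p under 0.05, 0 were rising and 2 falling, beside 8.6% and 10.2% of all detected probe sets.

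Hox genes respond to retinoic acid, to Cdx factors and to Gdf11 in the embryo. Of 22 listed genes, 20 were measured and 16 detected, of which 4 were higher by 2-fold or more at day 15 and 3 lower, beside 12.2% and 10.7% of all detected genes. Cdx1, Cdx4, Stra6 and the retinoic acid degrading enzyme gene Cyp26a1 reached the floor on no day. Cyp26b1, another gene for such an enzyme, named with its values in view, had 1078, 587, 416, 222 and 1428. Rdh10, which carries out the first step of retinoic acid synthesis, had 1284, 619.6, 377, 522 and 241, 5.32-fold lower at day 15, and 2.55-fold by another probe set. Aldh1a1 and Aldh1a2, which carry out the last step, had differences of at least 4.84-fold and at least 2.58-fold toward a higher day 15, with Aldh1a1 at 52.4, 298, 635, 609.6 and 354 and Aldh1a2 above the floor at day 15 alone. Crabp1, a retinoic acid binding protein gene, had 123, 221, 482, 212 and 344, 2.80-fold higher. The list median was 0.20, and by limma 0 passed an adjusted p under 0.05. With limma unadjusted p under 0.05, 1 was rising and 2 falling, beside 8.6% and 10.2% of all detected probe sets.

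**Figure D4:**
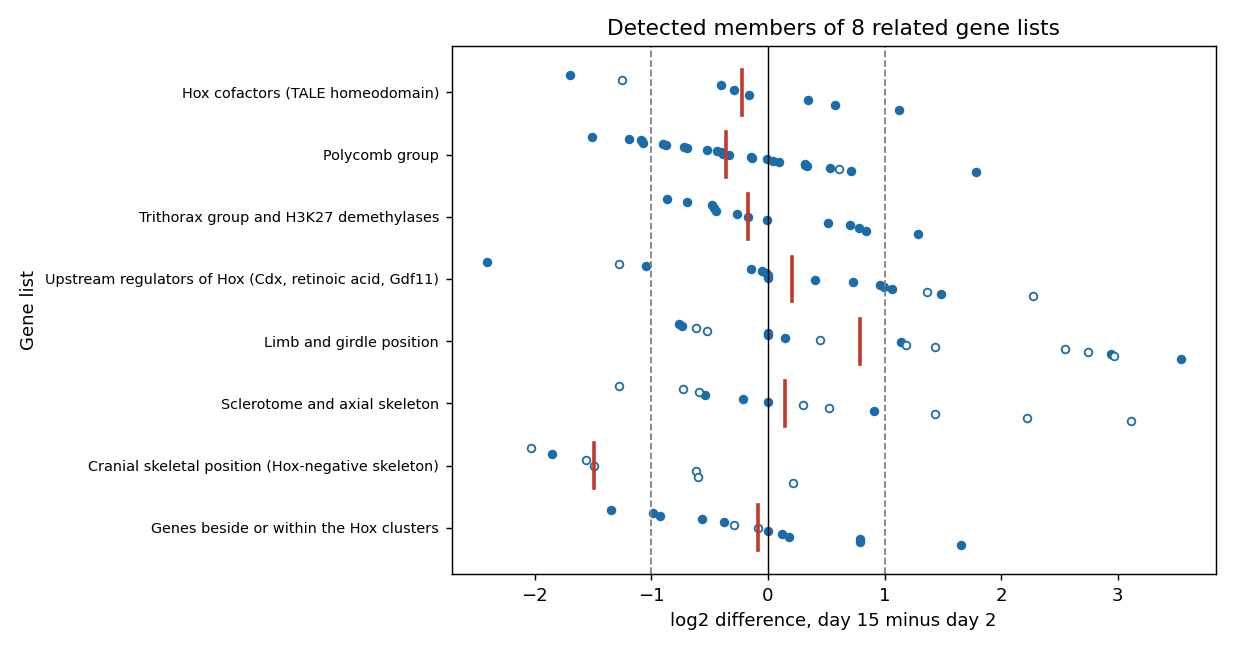
The log2 difference between day 15 and day 2 for each detected gene of 8 lists of related genes (brightest probe set; open points are bounds from genes below the floor on 1 day), with the list median in red and dashed lines at 2-fold. The median is highest for limb and girdle genes, at 0.79, and lowest for cranial genes, at -1.49, which is itself a bound.

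Genes that mark position in the limbs, trunk and head were set beside the Hox genes. Among limb and girdle genes, 8 of 16 detected members had a day 15 level at least 2-fold above day 2 and 0 were lower, beside 12.2% and 10.7% of all detected genes. The list median was 0.79. Of the 16, 8 were below the floor at day 2 and could only be level or higher, and 4 were below it at day 15. Tbx18, a T-box factor of somites and limb, had 74.9, 306, 666, 675 and 871, 11.6-fold higher, and 4.55-fold by another probe set. Prrx2, a homeobox gene of limb and connective tissue mesenchyme, had 313, 2061, 1888, 1598 and 2411, 7.70-fold higher. Dlx5, which also acts in osteoblasts, and Shox2, a limb gene, were below the floor at day 2 and at least 7.82-fold and 6.69-fold higher. The fibroblast, osteoblast, adipocyte and smooth muscle markers given above were mostly higher over the same days, and their part in these differences was not tested.

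Among sclerotome and axial skeleton genes, day 15 was higher in 3 of 12 detected members and lower in 1, beside the same 12.2% and 10.7%, and the list median was 0.15. Meox2 had 10.4, 218, 493, 545 and 633, at least 8.66-fold higher, and its relative Meox1 had 16.0, 16.5, 109, 179 and 341, at least 4.66-fold higher. Both are homeobox genes of the somite, and both were below the floor at day 2. Pax1, a sclerotome gene, was at least 2.69-fold higher, and Gdf11, a secreted factor that sets trunk to tail identity, had 177, 133, 111, 95.9 and 58.8, lower on each day than on the one before and at least 2.42-fold lower at day 15.

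Genes that mark the skeleton of the head, which forms without Hox expression over much of its extent, were low or lower. Of 12 measured, 5 reached the floor on no day, namely Otx1, Otx2, Barx1, Alx4 and Gsc, and of the 7 detected, 4 were lower at day 15 by 2-fold or more and 0 higher, beside 10.7% and 12.2%. Dlx2 had 299, 156, 54.0, 80.1 and 30.8, at least 4.09-fold lower, and Alx1 had 658, 1277, 1114, 619.8 and 183, 3.60-fold lower, and 2.05-fold by another probe set. Dlx1 and Dlx3 were at least 2.80-fold and 2.95-fold lower, while another Dlx3 probe set had a log2 difference of 0. The median was -1.49, which is the bound of Dlx1. Of the 7, 5 were below the floor at day 15 and could only be lower, and 1 was below it at day 2. By limma 0 members of these 3 position lists passed an adjusted p under 0.05. At an unadjusted p under 0.05, 7 were rising and 4 falling, beside 8.6% and 10.2% of all detected probe sets. Gdf11, among the falling ones, also belongs to the list of upstream regulators and is counted in both.

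Genes beside or within the clusters were mostly level, with 11 of 13 detected members within 2-fold, 1 higher and 1 lower, beside 12.2% and 10.7% of all detected genes, and a median of -0.09. Hoxb5os, a non-coding RNA annotated on the strand opposite Hoxb5 and Hoxb6, had 171, 269.5, 336, 571 and 539, 3.15-fold higher at day 15, while Hoxb5 was not detected and Hoxb6 was 1.49-fold higher. Snx11, near the Hoxb cluster, was 2.54-fold lower at day 15. Lnpk, beside the Hoxd cluster, was 1.98-fold lower, and 1.15-fold higher by another probe set, and Smug1, beside the Hoxc cluster, was 1.90-fold lower. Evx1 and Evx2, homeobox genes at the tail ends of clusters A and D, were near the floor, with Evx2 above it at day 2 alone. Of the flanking genes with other functions, Skap2 and Mtx2 were 1.13-fold and 1.09-fold higher and Skap1 was 1.48-fold lower. Other Skap2 probe sets were between 1.13-fold and 2.59-fold higher. By limma 0 of this list passed an adjusted p under 0.05. At an unadjusted p under 0.05, 3 were rising and 2 falling, beside 8.6% and 10.2% of all detected probe sets.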

How the data were processed

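Total RNA of 5 cultures, 1 per day, was measured on single-colour arrays. The deposited values are intensities on a linear scale, which the authors computed in MAS5 according to the submitters' processing notes. Its version and settings are not given in the sources used here. On each deposited array the mean intensity after trimming 2% at both ends was 500, so no further scaling was applied. Of 45101 probe sets, 64 controls were left out. For the rest, GEO's platform annotation gave 34945 probe sets 1 symbol, 932 several and 9160 none, and those with several named no gene.

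The floor was the 40th percentile over all arrays, and lower values were raised to it before taking log2, so values at the floor have no order, and a fold against such a value is a lower bound, written "at least". Straight-line trends over the 5 days were fitted to all detected probe sets with limma 3.58.1 in R 4.3.3, with Benjamini-Hochberg adjustment, 1 array per day leaving no replicates. Each p-value tests the slope against scatter about the line, which may hold technical variation and real departures from a straight line. The fit was tested on simulated straight-line courses, whose noise differs from that of the measured ones. Tables and figures were made in Python 3.11.15 (pandas 2.3.3, matplotlib 3.10.9). The depth of measurement has no count behind it, and no scan or slide batch was given in the values used.

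Every Hox gene with a probe set of its own is accounted for. From each other list the members with the largest difference between days 15 and 2 by the brightest probe set were named, up to 4, plus Evx1, Evx2, Skap1, Skap2, Mtx2 and Lnpk beside the clusters. List members below the floor on all arrays, and those so described in the text, were named after their values were seen. The members and lists were chosen with earlier results of these data known. Alternatives were other floors, a pseudocount, quantile scaling, other days and the brightest probe set per gene.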

Additional observations from a re-analysis of the deposited data

How the results depend on the processing

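No paired analysis was possible because each day has 1 array and so all share only the number 1, which leaves fewer than 2 pairs. The count of Hox probe sets at least 2-fold higher at day 15 was 7, and 4 with days 12 and 15 set against days 2 and 6. It was also 4 with day 6 in place of day 2, of which Hoxb2 and Hoxd9 were among the 7. The count of lower ones was 2, and 7 under a 20th percentile floor, and 1 each under a 60th percentile floor, with a pseudocount in place of the floor, and with the brightest probe set per gene. For Hoxa9 (2) the log2 difference turned to -0.072 with day 6 in place of day 2. Shares over all probe sets were not counted under these alternatives, and the cause of these shifts was not tested. Over the 9 probe sets past 2-fold and 79 alternative values, 78 kept their direction. Of the alternative values, 65 moved by less than the SD of 0.65 between probe sets, and 13 moved by more. Some alternatives, such as the brightest probe set per gene, could not change a value, so the tally overstates how steady the values are. The limma trend counts were 0 rising and 0 falling at adjusted p under 0.05 under all alternatives run, leaving out each array included (0 to 0), and the lowest Hox adjusted p ranged from 0.0933 to 0.402. At unadjusted p under 0.05, 2 to 7 were rising and 1 to 3 falling. Centring arrays on their medians moved each log2 difference by 0.14 for values above the floor, and the counts of 7 and 2 stayed. The number of detected Hox genes was 32 under the 20th percentile floor and 16 under the 60th. Signal near the floor limits what can be read for groups 10 to 13 and for Hoxd9.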

Other observations

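Probe sets whose annotation names more than 1 Hox gene were left out of the counts. A probe set for Hoxb8 and Hoxb7 had intensities of 73.7, 33.0, 113, 146 and 131 on days 2, 6, 9, 12 and 15, at or above the floor on every day but day 6. A probe set for Hoxd4 and Hoxd3 had 129, 25.2, 34.4, 141 and 14.7, above the floor on days 2 and 12. The other probe set of that pair had 12.1, 8.74, 40.3, 4.28 and 88.2, above the floor at day 15 alone, so their high days did not match.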
